A study of Cricetulus griseus with 19 samples.

Results

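The cytosolic heat shock chaperones described here are 4 genes, Hspa8, Hsph1, Hsp90aa1 and Stip1, taken by their symbols. Each symbol matched a single transcript target through its RefSeq accession, so the set holds 4 of 46718 targets, and 4 of the 333 protein coding targets to which a symbol could be given. The targets were NM_001246729.1 for Hspa8 (2243 nt), NM_001246720.1 for Hsph1 (3257 nt), NM_001246821.1 for Hsp90aa1 (2792 nt) and NM_001246678.1 for Stip1 (2147 nt). All 4 had whole estimated counts in all 19 libraries, meaning that no read was divided with another target, and all 4 passed the filter on low counts. Polyadenylated RNA was sequenced from Paradaux after long-term culture, a line made from the Chinese hamster ovary cell line CHO-K1 and built to control the size of its own population. The series holds 7 libraries labelled paradoxical feedback, 7 labelled negative feedback, 4 labelled uncontrolled growth and 1 labelled parental. Cells were harvested below confluence in every group, and the inserted construct had reads in all 19 libraries, the parental one included, so the groups share it. The labels name no agent, dose or length of culture, and do not say whether the line is 1 clone or whether numbered cultures were propagated apart. The p-values below therefore cover only variation among the sequenced libraries, which may be partly technical. None of 13 genes listed as markers to check the cell type had a target with a symbol, so the label was not checked by markers.

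Heat shock chaperones bind unfolded or unfinished proteins in the cytosol and help them fold. Hspa8, the constitutive Hsp70 protein also called Hsc70, binds exposed hydrophobic stretches in cycles of ATP hydrolysis. Hsph1, an Hsp110 protein, speeds the exchange of nucleotide on Hsp70. Hsp90aa1 is the stress-responsive form of cytosolic Hsp90, which completes the folding of kinases and steroid receptors. Stip1, also called Hop, holds Hsp70 and Hsp90 together while a client protein passes between them. In mammals, transcription of these genes is raised by heat shock factors when unfolded protein accumulates, and dividing cells keep them at high basal levels.

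Each library held 9.91 to 13.2 M estimated counts. Levels are given in CPM, counts scaled to a common library size, and log2 fold changes with the standard error of an edgeR fit to all 19 libraries. The threshold for a call was 0.05 on the p adjusted over 28555 tested targets. Targets under 800 nt took an uneven part of the counts. It was 8.50 to 12.4% under paradoxical feedback, 14.1 and 13.3% in the first pair of negative feedback cultures, 6.12 to 7.22% in negative feedback cultures 3 to 7, 12.2 to 13.4% in uncontrolled cultures and 11.8% in the parental library. Fits with this share as a covariate are given beside the results they change. In bulk RNA, more transcript per cell and a larger share of cells with a high level cannot be told apart.

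Hspa8 was the most abundant of the 4 chaperones in every library. Levels of different genes are compared here in TPM, which corrects for target length. Hspa8 averaged 2054 ± 357 TPM under paradoxical feedback (SD, n = 7), 1599 ± 736 TPM under negative feedback (SD, n = 7) and 646 ± 223 TPM in uncontrolled cultures (SD, n = 4), against 1065 TPM in the parental library. It ranked between position 55 and position 270 among all targets by TPM over the 4 groups. Hsp90aa1 averaged 479 ± 128 TPM under paradoxical feedback, 588 ± 274 TPM under negative feedback and 203 ± 16.4 TPM in uncontrolled cultures. Stip1 averaged 366 ± 63.0 TPM under paradoxical feedback, 313 ± 88.2 TPM under negative feedback and 188 ± 22.5 TPM in uncontrolled cultures. Hsph1 was lowest, at 93.1 ± 18.9 TPM under paradoxical feedback, 103 ± 50.3 TPM under negative feedback and 31.2 ± 4.23 TPM in uncontrolled cultures. Its rank among all targets by TPM ran from position 1145 to position 4453 over the 4 groups. The order Hspa8, Hsp90aa1, Stip1, Hsph1 held in 18 of 19 libraries, and in 1 library Stip1 stood above Hsp90aa1. In uncontrolled cultures Hsp90aa1 and Stip1 differed by less than the sum of their SDs.

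Together the 4 chaperones took 0.391 to 0.699% of all counts under paradoxical feedback, 0.207 to 0.566% under negative feedback and 0.181 to 0.298% in uncontrolled cultures, with 0.319% in the parental library. Within the paradoxical feedback group, culture 4 had the lowest CPM for all 4 chaperones, and culture 3 had the highest for 3 of them. Within the negative feedback group, cultures 1 and 2 were the lowest for all 4. Within the uncontrolled group, culture 3 was the highest for all 4.

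**Figure D1:**
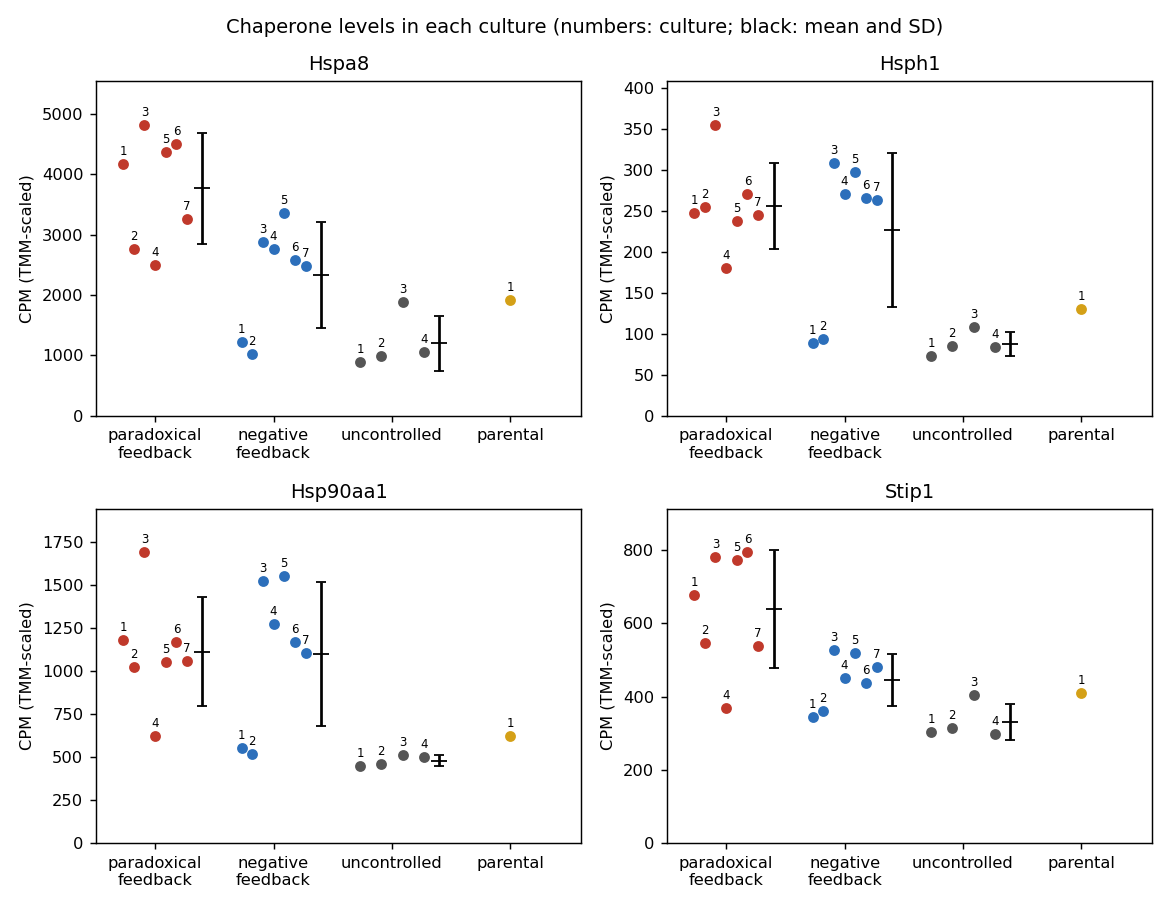
CPM (vertical axes, linear from 0) of each chaperone in each culture, by culture condition, with the culture number over each point and the mean and SD in black beside groups of more than 1 library. All 7 paradoxical feedback cultures lie above all 4 uncontrolled cultures for Hspa8, Hsph1 and Hsp90aa1, and negative feedback cultures 1 and 2 lie near the uncontrolled cultures.

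All 4 chaperones rose under paradoxical feedback relative to uncontrolled growth, with fold changes from 1.93 for Stip1 to 3.14 for Hspa8. Hspa8 ran from 2494 to 4821 CPM under paradoxical feedback with a median of 4174 CPM, against 885, 990, 1875 and 1048 CPM in uncontrolled cultures 1 to 4. The groups did not overlap, although uncontrolled culture 3 stood well above the other uncontrolled cultures. The log2 fold change of Hspa8 was 1.65 ± 0.33 (edgeR adjusted p = 0.0144), and higher levels were seen in 7 of 7 cultures.

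Hsph1, the exchange factor, ran from 181 to 356 CPM under paradoxical feedback with a median of 248 CPM, against 73.4, 85.7, 108 and 83.6 CPM in uncontrolled cultures 1 to 4. Its groups did not overlap, and its log2 fold change was 1.55 ± 0.32 (edgeR adjusted p = 0.0162). Hsp90aa1 ran from 625 to 1691 CPM under paradoxical feedback with a median of 1058 CPM, against 449, 459, 511 and 503 CPM in uncontrolled cultures 1 to 4. These groups did not overlap either, and the uncontrolled cultures were close to each other, with an SD of 6.49% of their mean. The log2 fold change of Hsp90aa1 was 1.21 ± 0.30 (edgeR adjusted p = 0.0258). Stip1, the link between both chaperone systems, ran from 368 to 794 CPM under paradoxical feedback with a median of 678 CPM, against 304, 316, 406 and 300 CPM in uncontrolled cultures 1 to 4. Paradoxical feedback culture 4 lay below uncontrolled culture 3 for Stip1, and the other 6 paradoxical feedback cultures lay above all uncontrolled ones. Its log2 fold change was 0.95 ± 0.19 (edgeR adjusted p = 0.0149).

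As background, 4.93% of all tested targets were called higher under paradoxical feedback, 8.97% of the targets with whole counts and 19.8% of those with a symbol, so a call was more frequent among targets like these than among targets at large. The median log2 fold change was 1.38 over the 4 chaperones, 0.55 over 283 tested targets with a symbol and 0.02 over all tested targets. Paradoxical feedback lay above uncontrolled growth without overlap in 7.94% of all tested targets, and in 3 of the 4 chaperones. With uncontrolled culture 1 or 2 left out, none of the 4 was called, at adjusted p from 0.0586 to 0.0850 by edgeR and log2 fold changes from 0.91 to 1.57. Hsp90aa1 also missed the threshold without uncontrolled culture 3 or 4 (adjusted p = 0.0620 and 0.0636 by edgeR) and with the share of short targets as a covariate (log2 fold change 0.79, adjusted p = 0.0595). With that covariate the other 3 chaperones were still called, at smaller log2 fold changes. These were 1.31 for Hspa8, 1.02 for Hsph1 and 0.87 for Stip1, against 1.65, 1.55 and 0.95 without it.

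**Figure D2:**
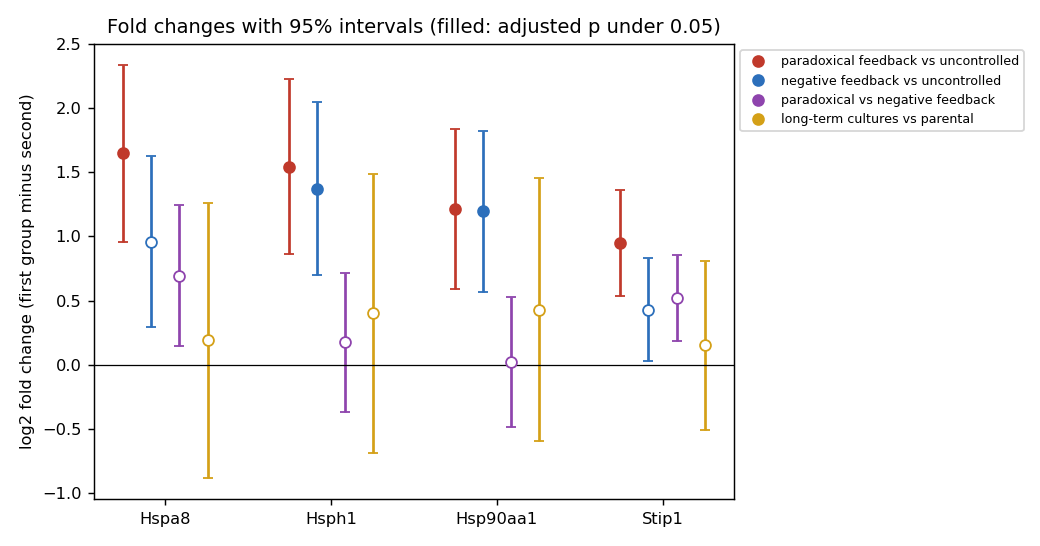
Log2 fold change (vertical axis) of each chaperone in 4 comparisons, first-named group minus second, with 95% intervals from the edgeR fit; filled points have an adjusted p under 0.05. All 4 points are filled for paradoxical feedback against uncontrolled growth, Hsph1 and Hsp90aa1 for negative feedback against uncontrolled growth, and none for the other comparisons.

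Under negative feedback, edgeR called Hsph1 and Hsp90aa1 higher than in uncontrolled cultures, and the call of Hspa8 depended on the tool. The means joined cultures that differed widely. In negative feedback cultures 1 and 2, Hsph1 had 89.1 and 93.7 CPM, and it had 309, 271, 298, 266 and 264 CPM in cultures 3 to 7, against 73.4 to 108 CPM in uncontrolled cultures. Its first pair of cultures lay inside the uncontrolled range and the other 5 lay above it. The log2 fold change of Hsph1 was 1.37 ± 0.32 (edgeR adjusted p = 0.0237). Hsp90aa1 had 553 and 522 CPM in that first pair, and 1523, 1273, 1553, 1170 and 1107 CPM in cultures 3 to 7, against 449 to 511 CPM in uncontrolled cultures. All 7 negative feedback cultures lay above all uncontrolled ones, the first pair by a small margin. The log2 fold change of Hsp90aa1 was 1.20 ± 0.30 (edgeR adjusted p = 0.0252).

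Hspa8 had 1220 and 1023 CPM in negative feedback cultures 1 and 2, and 2885, 2766, 3366, 2576 and 2487 CPM in cultures 3 to 7, against 885 to 1875 CPM in uncontrolled cultures. Its log2 fold change of 0.96 ± 0.32 missed the threshold by edgeR (adjusted p = 0.0606) and by limma-voom (adjusted p = 0.0682), but passed it by DESeq2 (0.97, adjusted p = 0.0129). Hspa8 was also called by edgeR over targets with whole counts alone (0.94, adjusted p = 0.0288) and without negative feedback culture 1 (1.07, adjusted p = 0.0188) or 2 (1.07, adjusted p = 0.0146). In the levels themselves, uncontrolled culture 3 lay above negative feedback cultures 1 and 2. Stip1 had 346 and 361 CPM in that first pair, and 527, 451, 520, 438 and 482 CPM in cultures 3 to 7, against 300 to 406 CPM in uncontrolled cultures. Stip1 was called by none of the 3 tools, and its log2 fold change was 0.43 ± 0.19 (edgeR adjusted p = 0.138). Stip1 was itself the median of the 283 tested targets with a symbol, which include the 4 chaperones. As background, 8.65% of all tested targets were called higher under negative feedback, 13.8% of those with whole counts and 27.9% of those with a symbol, and the groups lay apart in this direction in 1.67% of all tested targets. The median log2 fold change was 1.08 over the 4 chaperones and 0.04 over all tested targets.

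The negative feedback result rested on cultures 3 to 7, which are also the cultures with the smallest share of counts on short targets. Without them, the log2 fold changes were 0.06 for Hsph1, 0.16 for Hsp90aa1, -0.10 for Hspa8 and 0.09 for Stip1, and none was called. Without cultures 1 and 2, all 4 were called, at 1.66 for Hsph1, 1.44 for Hsp90aa1, 1.21 for Hspa8 and 0.53 for Stip1. That fit called 11460 targets in either direction, against 2787 with all libraries. Cultures 1 and 2 were the lowest of their group for all 4 genes, so leaving them out describes the split and is no separate support for a rise. With the share of short targets as a covariate, the log2 fold changes fell to between 0.29 and 0.42 and none was called. Leaving out any 1 uncontrolled culture also ended both calls, with adjusted p from 0.0547 to 0.0794 by edgeR for Hsph1 and Hsp90aa1, and leaving out negative feedback culture 4 or 5 ended that of Hsp90aa1 (adjusted p = 0.0501 by edgeR in both fits).

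**Figure D3:**
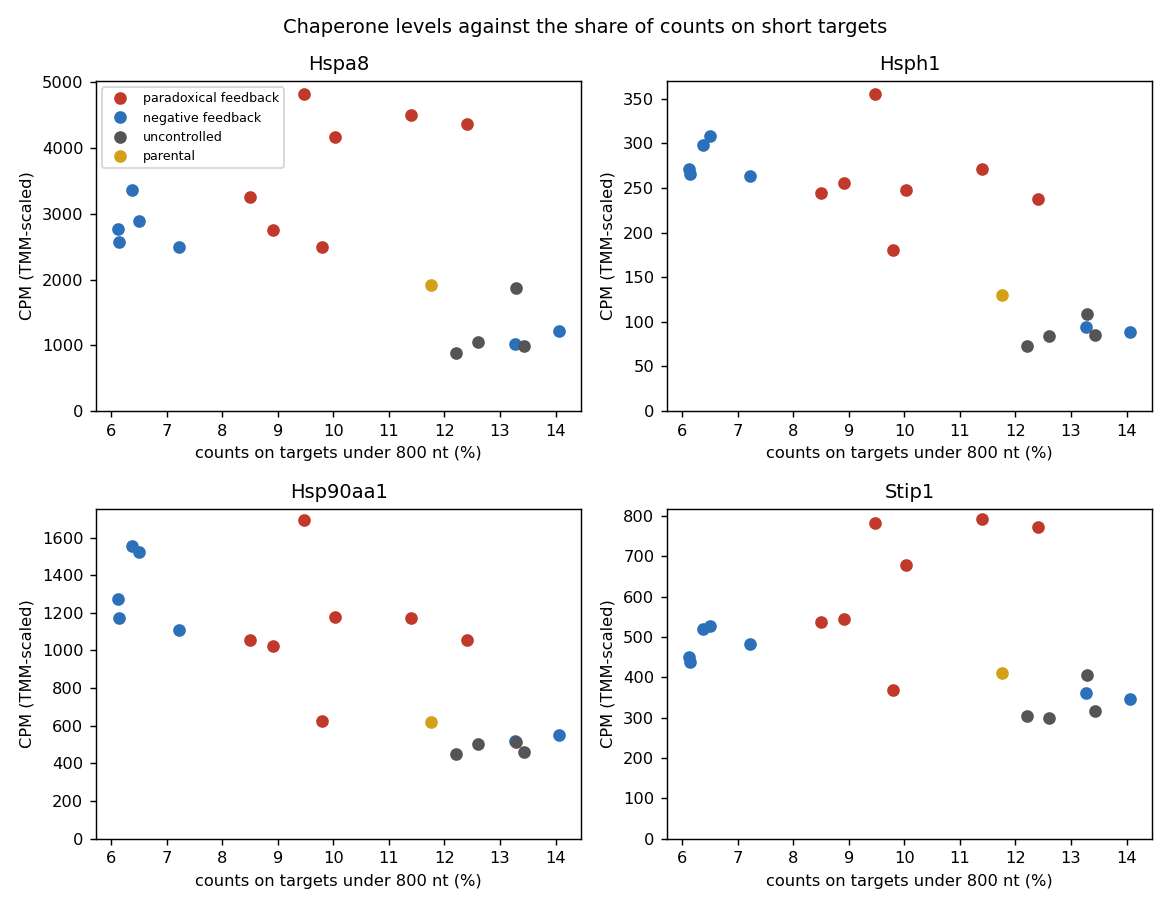
CPM of each chaperone (vertical axes, linear from 0) against the share of counts on targets under 800 nt in percent (horizontal axes), 1 point per library, coloured by culture condition. Negative feedback cultures 3 to 7 form the set at 6.12 to 7.22%, and the paradoxical feedback cultures lie at 8.50 to 12.4%, with culture 4 lowest among them in all 4 panels.

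Direct comparison of paradoxical with negative feedback called none of the 4 chaperones, where 0.270% of all tested targets were called by edgeR in either direction. Of the 4, 2 had an unadjusted p under 0.05 by edgeR, as had 5033 of 28555 tested targets and 104 of 283 with a symbol. DESeq2 and limma-voom called 0 of the 4 each. Hspa8 averaged 3767 ± 920 CPM under paradoxical feedback and 2332 ± 875 CPM under negative feedback (SD, n = 7 each), a log2 fold change of 0.69 ± 0.26 with a 95% interval of 0.14 to 1.24 (edgeR adjusted p = 0.185). Stip1 averaged 640 ± 161 CPM under paradoxical feedback and 446 ± 71.5 CPM under negative feedback, a log2 fold change of 0.52 ± 0.16 with an interval of 0.18 to 0.86 (edgeR adjusted p = 0.120). Values for Hsph1 and Hsp90aa1 were close in both groups. Hsph1 averaged 256 ± 52.2 CPM under paradoxical and 227 ± 94.2 CPM under negative feedback, with an interval of -0.37 to 0.72 on the log2 scale. Hsp90aa1 averaged 1115 ± 315 CPM under paradoxical and 1100 ± 419 CPM under negative feedback, with an interval of -0.49 to 0.53. In TPM the means of Hsph1 and Hsp90aa1 were both lower under paradoxical than under negative feedback, as given above, and TPM was not tested. Without negative feedback cultures 3 to 7, Hspa8 (1.76), Hsph1 (1.49) and Hsp90aa1 (1.06) were called higher under paradoxical feedback, with adjusted p from 0.00301 to 0.0292 by edgeR. That fit called 2454 targets in either direction, against 77 with all libraries. It leaves out the cultures with the higher levels, so it is a description and no separate support. Hspa8 was also called with the share of short targets as a covariate (log2 fold change 1.02, adjusted p = 0.0459), and Stip1 without paradoxical feedback culture 4 (log2 fold change 0.62, adjusted p = 0.0404).

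The balance between the Hsp70 and Hsp90 members can be read within a library, where the ratio of 2 counts does not depend on how libraries are scaled. Hspa8 counts were 3.54, 2.69, 2.85, 3.99, 4.14, 3.84 and 3.08 times those of Hsp90aa1 in paradoxical feedback cultures 1 to 7. The ratio was 2.21, 1.96, 1.89, 2.17, 2.17, 2.20 and 2.25 in negative feedback cultures 1 to 7. All 7 paradoxical feedback cultures lay above all 7 negative feedback cultures, and negative feedback cultures 1 and 2, which had the lowest levels of both genes, had ratios inside the range of cultures 3 to 7. In uncontrolled cultures 1 to 4 the ratio was 1.97, 2.15, 3.67 and 2.09, and it was 3.09 in the parental library. Uncontrolled culture 3 thus had a ratio inside the paradoxical feedback range. Of 6 ratios between the 4 genes, this was the only 1 in which paradoxical and negative feedback did not overlap, and it is given as a description with no test, since it was chosen after its values were seen.

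**Figure D4:**
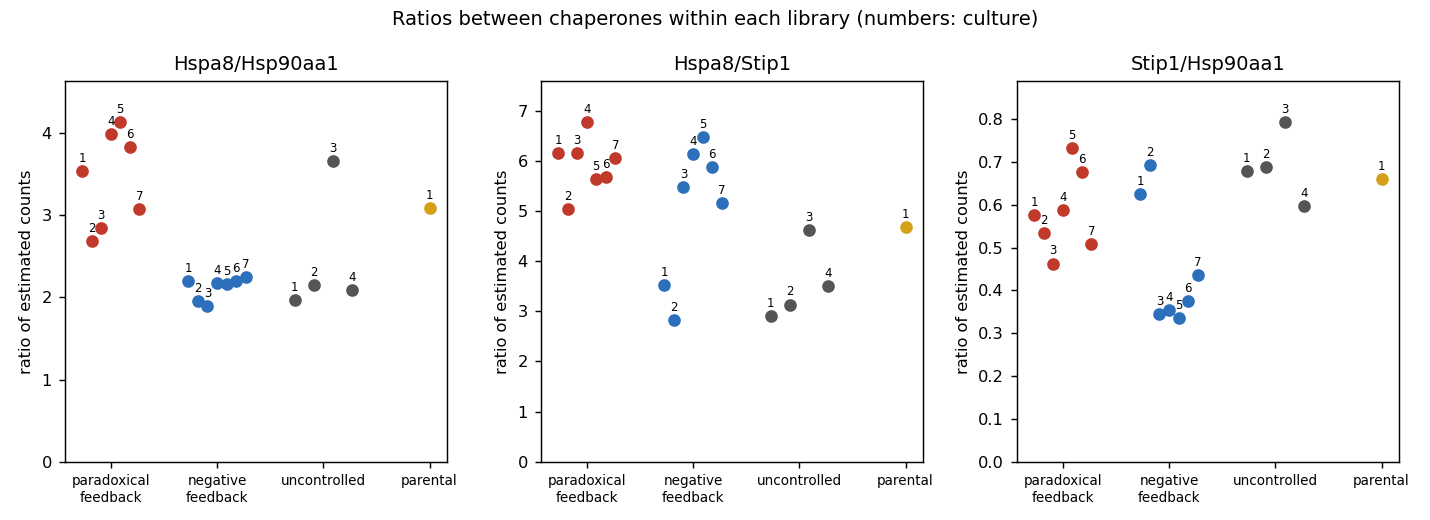
Ratio of estimated counts (vertical axes, linear from 0) between pairs of chaperones in each library, by culture condition, with culture numbers over the points. For Hspa8 over Hsp90aa1 the paradoxical feedback cultures lie at 2.69 to 4.14 and the negative feedback cultures at 1.89 to 2.25.

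The ratio of Hspa8 to Stip1 separated paradoxical feedback from uncontrolled growth, at 5.05 to 6.78 against 2.91 to 4.62, with 2.83 to 6.47 under negative feedback. The ratio of Stip1 to Hsph1 was lower under paradoxical feedback, at 2.04 to 3.25 against 3.58 to 4.14 in uncontrolled cultures. It was lower still in negative feedback cultures 3 to 7, at 1.65 to 1.83, so a low ratio was not particular to paradoxical feedback. In negative feedback cultures 1 and 2 it was 3.88 and 3.85, and 3.15 in the parental library. Paradoxical and uncontrolled groups overlapped in the other 4 ratios, and negative feedback and uncontrolled groups overlapped in all 6. None of the 6 ratios was tested, and the share of other gene pairs that lie apart in this way was not computed. These ratios are therefore a description too.

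Relative to the parental line, the long-term cultures as a whole had no chaperone called, where 0.0175% of all tested targets were called by edgeR. None of the 4 had an unadjusted p under 0.05 by edgeR, beside 636 of 28555 tested targets and 4 of 283 with a symbol. DESeq2 and limma-voom called 0 of the 4. The parental library held 1923 CPM of Hspa8, 130.5 CPM of Hsph1, 622 CPM of Hsp90aa1 and 410.5 CPM of Stip1. For Hspa8, Hsph1 and Hsp90aa1 these levels lay below all 7 paradoxical feedback cultures and above all 4 uncontrolled cultures. For Hsp90aa1 the margin was small, since paradoxical feedback culture 4 had 625 CPM. The share of all tested targets with this order was not computed, so it is a description and no result about the chaperones. Negative feedback cultures 3 to 7 lay above the parental level for all 4 genes, and cultures 1 and 2 below it. The log2 fold changes of the mean of the 3 long-term groups over the parental library ran from 0.15 ± 0.31 for Stip1 to 0.43 ± 0.49 for Hsp90aa1, with 95% intervals from -0.89 to 1.49 over the 4 genes. With 1 parental library, this test takes the spread of the cultures for that of the parental line.

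Other genes that keep proteins folded were taken from 8 lists of 100 genes, of which 12 had a target with a symbol, and all 12 passed the filter on low counts. Their calls come from the main edgeR fit alone. Whether these calls hold with other tools, with the covariate or with a library left out was not checked. No gene of the lists of other Hsp70 partners, Hsp90 partners, heat shock factors or small heat shock proteins was among them, so those genes were not analysed here. Under paradoxical feedback, 2 of the 12 were called higher and 1 lower, where 1.50% of all tested targets were called lower and, as given above, 4.93% of all and 19.8% of those with a symbol were called higher. Tcp1, a subunit of the cytosolic chaperonin that folds actin and tubulin, averaged 691 ± 179 CPM under paradoxical feedback (SD, n = 7) and 443 ± 44.5 CPM in uncontrolled cultures (SD, n = 4). The log2 fold change of Tcp1 was 0.64 ± 0.18 (edgeR adjusted p = 0.0467), and part of its reads was divided among similar targets. Ubb, which encodes ubiquitin, averaged 644 ± 135 CPM under paradoxical feedback and 445 ± 36.7 CPM in uncontrolled cultures, and its log2 fold change was 0.53 ± 0.14 (edgeR adjusted p = 0.0347). The target of Ubb shared reads with other targets. Both rises were near the median of 0.55 over targets with a symbol.

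The Hsp70 genes of other compartments were not called higher. Hspa9, the mitochondrial Hsp70, averaged 413 ± 58.8 CPM under paradoxical feedback, 458 ± 35.5 CPM under negative feedback and 425 ± 50.5 CPM in uncontrolled cultures, with log2 fold changes of -0.04 ± 0.11 and 0.11 ± 0.11 over uncontrolled growth, neither called. Hspa5, the Hsp70 of the endoplasmic reticulum, averaged 1993 ± 632 CPM under paradoxical feedback and 7902 ± 3286 CPM in uncontrolled cultures. It was called lower, by 1.99 ± 0.56 on the log2 scale (edgeR adjusted p = 0.0431). Under negative feedback Hspa5 ran from 1768 to 11872 CPM with a median of 1849 CPM, and was not called. Of the 8 genes of the endoplasmic reticulum list that passed the filter, 0 were called higher and Hspa5 alone lower under paradoxical feedback. The median log2 fold change was 0.03. This median takes Canx as 0, although its target had no counts in either group and could not be tested in this comparison. Creld2, a folding factor of that compartment, just missed the threshold (-1.74 ± 0.51, edgeR adjusted p = 0.0508), while the lectin chaperone Calr (-0.21 ± 0.21) and the disulphide isomerases P4hb (0.10 ± 0.20) and Pdia3 (0.29 ± 0.17) were not called. The target of Canx was at 0 in all paradoxical feedback, uncontrolled and parental libraries and reached 46.8 CPM under negative feedback. This target shared reads with other targets, so a value of 0 need not mean that the gene was silent. Under negative feedback 2 of the 12 genes were called, beside 8.65% of all tested targets and 27.9% of those with a symbol called higher, so this count is no result about the list. Both were in that compartment and both higher, namely Edem1 (3.85 ± 0.84), which sends misfolded glycoproteins to degradation, and the Hsp110-like Hyou1 (1.00 ± 0.28, shared reads). Edem1 ran from 1.65 to 49.2 CPM under negative feedback, against 1.11 to 2.79 CPM in uncontrolled cultures, so the groups overlapped. None of the 12 was called between paradoxical and negative feedback or between long-term cultures and the parental library.

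**Figure D5:**
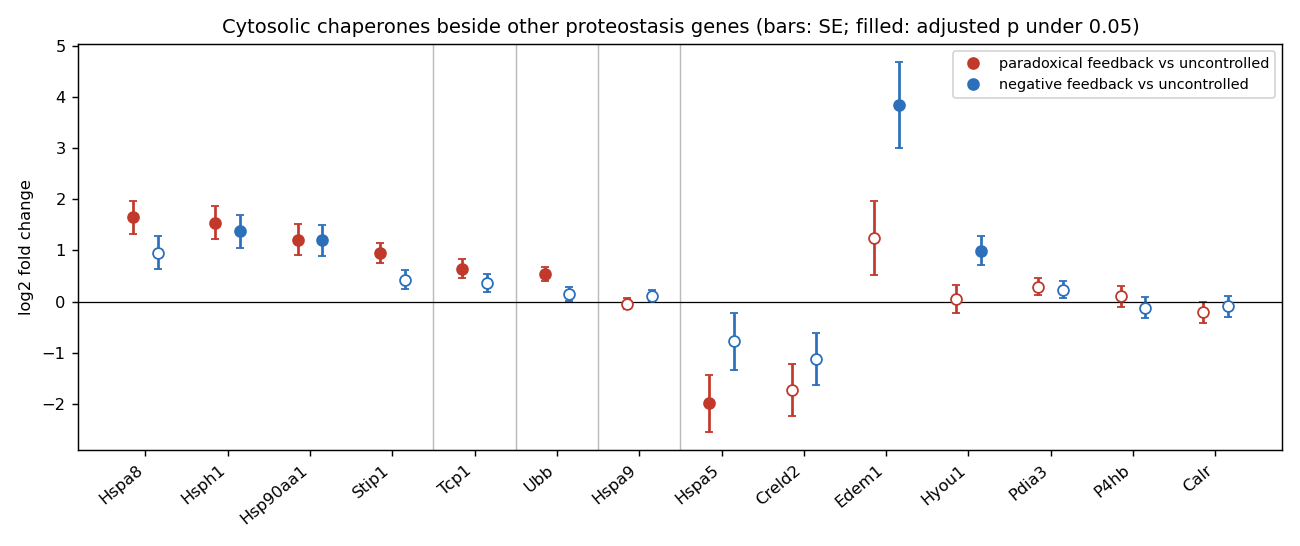
Log2 fold change (vertical axis) over uncontrolled growth of the 4 cytosolic chaperones (left of the first grey line) and of other protein folding genes, with SE bars, for paradoxical and for negative feedback; filled points have an adjusted p under 0.05. The cytosolic chaperones lie at 0.95 to 1.65 under paradoxical feedback, whereas Hspa5 lies at -1.99 and Hspa9 at -0.04; Canx is left out because its target was at 0 in all uncontrolled cultures.

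The targets most like each chaperone over the 19 libraries were ranked by Pearson's r of log2 CPM among 240 other targets with a symbol. The libraries fall into separate sets, so r is a description and carries no p. Hspa8 was most like Pcna, the sliding clamp of DNA replication (r = 0.96), the alpha-tubulin Tuba1b (0.95, shared reads) and Stip1 (0.93). Stip1 was most like Tuba1b (0.96), Tcp1 (0.935, shared reads) and Hspa8. Hsp90aa1 was most like Hsph1 (0.97), Gart, an enzyme of purine synthesis (0.97), and the purine enzyme Adsl (0.96, shared reads). Hsph1 was most like the repair helicase Ercc3 (0.99), Adsl (0.98) and the repair gene Fancg (0.97). Hspa8 and Stip1 were thus each among the 3 targets most like the other, whereas Hsph1 was among those of Hsp90aa1 and Hsp90aa1 was not among those of Hsph1.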

How the data were processed

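Polyadenylated RNA was measured in 19 libraries of a hamster cell line. Per the submitters' processing notes, reads were handled with Trim Galore and kallisto; no versions are named there, and the genome build is not given in the sources used here, so no coordinates are printed. Per the file headers, each deposited file gives an estimated count and a TPM value per transcript target. The estimated counts deposited by the authors can be divided among similar targets; a target counted as whole if its counts were whole within 1e-06 in every library. The TPM values deposited by the authors were used only to compare levels between genes. Symbols came from a RefSeq gene table (assembly CriGri-PICRH-1.0) by versioned accession, which matched 527 targets; most predicted transcripts have no symbol, so counts were not summed to genes.

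Estimated counts were rounded, filtered with filterByExpr (28555 targets left) and scaled by TMM. The quasi-likelihood test of edgeR 4.0.16 (R 4.3.3) was applied to all 19 libraries in 1 model by group. P-values were adjusted by Benjamini-Hochberg over all tested targets. The procedure was tested on simulated data. Log2 CPM used a prior count of 2. The lowest member count in a library was 893, and the SDs of the members within groups were 6.49 to 41.5% of the mean CPM. Alternatives were DESeq2 1.42.0, limma-voom (limma 3.58.1), other scaling, filter, samples and covariates. No libraries of a group agreed within sampling noise (lowest chi-square per degree of freedom 1.89 over 48 pairs). The members and gene lists were chosen with earlier results of these data known. Named genes are the members, the tested genes of the lists, of which 1 is not reported here, and the 3 targets most like each member. Replicate numbers are shared between groups, and the main model did not pair the samples by them.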

Additional observations from a re-analysis of the deposited data

Results flagged for a closer look

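Of 12 combinations of chaperone and group checked for a culture far from the others of its group, 2 stood out, where chance gives about 1 in 20 for each. The check used the gap to the nearest culture. It can therefore miss 2 outlying cultures that lie together, such as negative feedback cultures 1 and 2. Both flags were the highest culture of the uncontrolled group, which was culture 3. They come from the same library and are not independent, so 2 of 12 cannot be set against 1 in 20. The 2 genes flagged in uncontrolled culture 3 were Hspa8 and Stip1. Hspa8 stood at 1875 CPM there, against 885 to 1048 CPM in the other 3 uncontrolled cultures. Stip1 stood at 406 CPM there, against 300 to 316 CPM in the others. Without this culture the log2 fold change of Hspa8 was 1.95 for paradoxical feedback and 1.26 for negative feedback, against 1.65 and 0.96 with it, and that of Stip1 was 1.06 and 0.54, against 0.95 and 0.43. The share of counts on short targets in this culture was 13.3%, within the range of its group, and the reason for its levels was not tested.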

How the results depend on the processing

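For paradoxical feedback against uncontrolled growth, each chaperone kept its direction in all 28 alternatives, and the calls held in 25 of 28 for Hspa8, Hsph1 and Stip1 and 22 of 28 for Hsp90aa1. For negative feedback they held in 20 of 28 for Hsph1 and 18 of 28 for Hsp90aa1. Both tallies include fits that left out only libraries outside the comparison, and such fits moved the log2 fold changes little. That of Hsph1 under negative feedback stayed at 1.36 to 1.37 without any 1 paradoxical feedback culture. The tallies therefore overstate how far the calls held. Leaving out any 1 uncontrolled culture ended both negative feedback calls, as given above. The number of chaperones called for negative feedback was 2, 3 by DESeq2 and over whole targets (Hspa8 being added), and 0 when only these groups were fitted, with the short-target covariate and without cultures 3 to 7, and 4 without cultures 1 and 2, with 0 to 3 when 1 library was left out. For paradoxical feedback it was 4, with 0 to 4 when 1 library was left out. Between both feedback groups it was 0, 1 with the short-target covariate, 3 without negative feedback cultures 3 to 7, and 0 to 1 when 1 library was left out. The same-numbered cultures did not deviate together (r from -0.16 to 0.11, over 0.1 in 1 of 15 pairs), so no pairing by number was seen. Deviations from group means cannot exclude a pairing, because the split among negative feedback cultures can mask it. With the replicate block, 0 chaperones were called in either comparison with uncontrolled growth. That block called 4, 3, 0 and 0 targets for negative feedback, paradoxical feedback, both feedback groups and the parental line.

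Over all targets, negative feedback gave 2787 calls, 6436 by DESeq2, 5039 by limma-voom, 10 in the groups compared alone, 6 with the covariate, 13 without cultures 3 to 7 and 11460 without cultures 1 and 2, and 7 to 6938 with 1 library left out. Paradoxical feedback gave 1835, 4823 by DESeq2, 4956 in the groups compared alone, 1145 with the covariate, 4926 without negative feedback cultures 3 to 7 and 5675 without 1 and 2, and 127 to 3204 with 1 left out. Both feedback groups gave 77, 1794 by DESeq2, 42 by library size, 2 with no filter, 297 by limma-voom, 0 in the groups compared alone, 697 with the covariate, 315 over whole targets, 2454 without cultures 3 to 7 and 5937 without 1 and 2, and 0 to 989 with 1 left out. The parental comparison gave 5, 298 by DESeq2, 100 by limma-voom, 12 with the covariate, 0 over whole targets, 8 without cultures 3 to 7 and 51 without 1 and 2, and 5 to 11 with 1 left out. The causes were not tested.

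Signs turned only where no call stood. Hspa8 for negative feedback was -0.096 without cultures 3 to 7. Between both feedback groups Hsp90aa1 (0.02) was -0.048 by DESeq2, -0.042 by library size, -0.020 over whole targets and -0.24 without negative feedback cultures 1 and 2, with -0.11 to 0.12 when 1 library was left out, and Hsph1 was -0.13 without cultures 1 and 2. Against the parental line Hsph1 and Hspa8 were -0.068 and -0.15 with the block and -0.040 and -0.17 without cultures 3 to 7. Matching by accession without its version also found 4 members.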
